A study of Homo sapiens with 12 samples.

Results

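The aminoacyl-tRNA synthetases, the enzymes that join each amino acid to its tRNA, were followed at the mRNA level through 4 h of blocked transcription in Ewing sarcoma cells. The members were taken from a list of 36 gene symbols, under the older names that the deposited table uses (AARS rather than AARS1), and 35 of them had a row among the 26334 genes of the table. They comprised 20 enzymes of the cytosol and 15 of the mitochondrion, the latter with symbols ending in 2, and MARS2 was not analysed here. The cells were shA673-1c, a line derived from A673 Ewing sarcoma cells with a doxycycline-inducible hairpin against the fusion transcript EWS::FLI1. All groups carried the hairpin and had received doxycycline at 1 µg/ml for 4 days, so the induced hairpin was common to every library, and libraries without it were not analysed here. Actinomycin D, which binds DNA and stops RNA polymerases, was then given at 5 µM. Polyadenylated RNA was sequenced after 0, 1, 2 and 4 h, with 3 replicates at each time. The comparisons ask which mRNAs were lost faster or slower than the rest once synthesis was blocked.

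An aminoacyl-tRNA synthetase activates its amino acid with ATP and transfers it to the matching tRNA, so every codon read on a ribosome depends on one of these enzymes. Nuclear genes encode both sets, one for the cytosol and one that is imported into mitochondria to serve the small set of proteins made there, and in mammals the genes GARS and KARS give rise to both forms. Part of the cytosolic set is held in a large multisynthetase complex with scaffold proteins, and the genes of many cytosolic enzymes are known targets of ATF4, the transcription factor of the amino acid response.

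Promoter windows show how the sets differ at their start sites, and these are printed because a larger share of the cytosolic genes than of all windows held the ATF4-type element. Windows from 250 bases before to 50 bases after the start site (RefSeq, GRCh38.p14) were found for 29 of the 35 members, 16 cytosolic and 13 mitochondrial. They were searched on both strands for TGATGNAA, the core of the element bound by ATF4 together with C/EBP proteins. It was found in 7 of 16 cytosolic genes (43.8%) and in 1 of 13 mitochondrial genes (7.69%), against 1270 of all 35116 windows (3.62%), or 1217 of the 27305 genes with a window (4.46%). The matches are given with their flanks, read 5′ to 3′ on the strand of the gene, with the motif or its reverse complement in capitals.
AARS, chr16:70289666-70289713, minus strand: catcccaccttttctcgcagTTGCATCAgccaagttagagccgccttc
CARS, chr11:3057398-3057445, minus strand: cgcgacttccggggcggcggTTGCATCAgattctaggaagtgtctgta
GARS, chr7:30594825-30594872, plus strand: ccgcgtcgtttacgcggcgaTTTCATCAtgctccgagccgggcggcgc
IARS, chr9:92293683-92293730, minus strand: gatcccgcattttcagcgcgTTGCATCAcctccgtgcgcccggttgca
MARS, chr12:57488044-57488091, plus strand: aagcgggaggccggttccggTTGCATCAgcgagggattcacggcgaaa
NARS, chr18:57621808-57621842, minus strand: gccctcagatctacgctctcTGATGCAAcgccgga
TARS, chr5:33440947-33440993, plus strand: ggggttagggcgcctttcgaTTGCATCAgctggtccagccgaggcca
YARS2, chr12:32756067-32756114, minus strand: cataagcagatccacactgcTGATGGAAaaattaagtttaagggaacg
The match began within 33 bases of the annotated start, on either side, in CARS, GARS, IARS, MARS, NARS and TARS. In AARS and YARS2 it lay farther upstream, at -187 and -197 with the start site counted as 0. A match of letters is no evidence that a factor binds there.

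HARS and HARS2, the cytosolic and mitochondrial histidine enzymes, start back to back on chromosome 5, 85 bases apart in RefSeq. In GENCODE v29 the models of both share exon bases on opposite strands. The stretch between the RefSeq starts is shown on the plus strand, with the first base of HARS (read leftward) and of HARS2 (read rightward) in capitals.
HARS and HARS2, chr5:140691370-140691455, plus strand: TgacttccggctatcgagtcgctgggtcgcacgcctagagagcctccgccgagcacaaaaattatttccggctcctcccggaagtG

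Library totals lay between 9381855 and 10929000 counts, and all 35 members passed the filter on low counts that left 12775 genes for testing. The first principal component followed time, and the libraries of replicate 3 stood apart from the others on the second. Libraries with the same replicate number deviated together, so the fit with the replicate number as a block is given beside the unblocked one where it changes the call of a synthetase or of a related gene named here. Of the Ewing sarcoma markers, FLI1, EWSR1, NKX2-2 and STEAP1 were present, and CD99 was listed at 0 in every library. FLI1, whose reads include those of the fusion, went from 19.8, 19.9 and 21.7 CPM (the count relative to the scaled library total) at 0 h to 8.16, 7.01 and 7.10 CPM at 4 h (log2 change -1.46, SE 0.20, edgeR adjusted p = 7.02e-05). EWSR1 was higher at 4 h by 0.33 on the log2 scale (adjusted p = 0.026), or -0.05 with libraries scaled to ribosomal protein mRNAs, and its call ended without replicate 1 or 2 of 4 h or replicate 3 of 0 h (adjusted p up to 0.129). Of 13 markers of blood, epithelium, endothelium and liver, 2 were at 0 in all libraries of 0 h and 4 in those of 4 h. Their summed level was 21.9 to 32.1 CPM at 0 h and 12.4 to 20.5 CPM at 4 h, of which HBB alone gave 17.7 to 26.1 and 8.06 to 14.8 CPM. Without HBB the sums were 3.87 to 6.03 and 4.35 to 5.67 CPM, and their part in the results was not tested.

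Before actinomycin D the cytosolic enzymes had the more abundant mRNAs. Divided by transcript length, the median level at 0 h was 66.4 CPM per kb over the 20 cytosolic genes (20.1 to 167) and 10.4 CPM per kb over the 15 mitochondrial genes (2.48 to 74.0). WARS, the tryptophan enzyme, stood highest at 167 ± 10.6 CPM per kb (SD, n = 3), and its lowest library (158) lay above the highest library of GARS (152), the next in order. GARS, TARS, SARS and EPRS followed at 138, 136, 134 and 128 CPM per kb, with library values that overlapped from each to the next. Of the mitochondrial genes only IARS2, for isoleucine, stood above the cytosolic median, with 74.0 ± 4.95 CPM per kb beside 70.3 ± 1.65 for its cytosolic partner IARS, and the values of both genes overlapped. CARS, for cysteine, was the lowest cytosolic gene at 20.1 ± 1.83 CPM per kb, below the mitochondrial genes RARS2, EARS2 and HARS2. At the bottom stood WARS2 at 5.28 ± 0.301, LARS2 at 4.39 ± 0.366 and PARS2 at 2.48 ± 0.385 CPM per kb, each with its highest library below the lowest of the gene before it. As a share of all counts, the cytosolic set took 0.472% to 0.530% of a library and the mitochondrial set 0.0680% to 0.0734%.

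**Figure D1:**
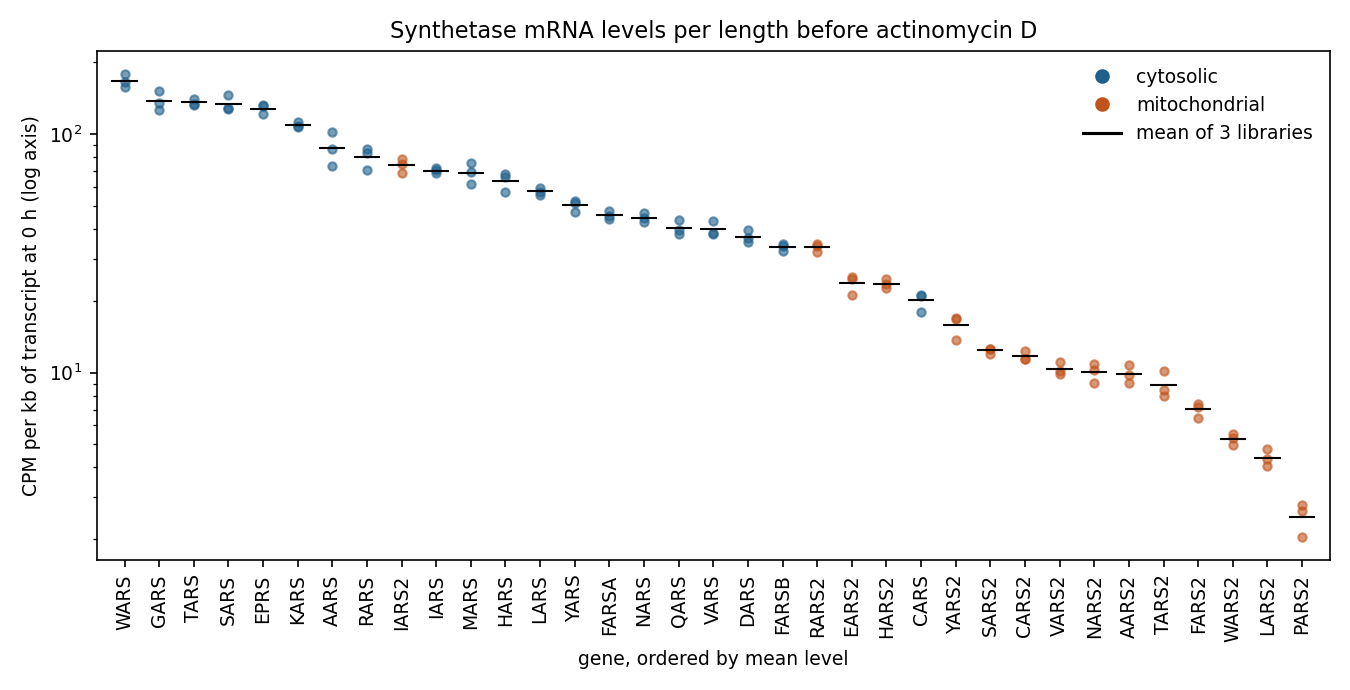
Levels of the 35 synthetase mRNAs at 0 h in CPM per kb of transcript on a log axis, ordered by mean; points are the 3 libraries, bars their means, blue cytosolic and orange mitochondrial. Most cytosolic genes sit to the left, from 167 for WARS down, with IARS2 at 74.0 the only mitochondrial gene among the first 20 and PARS2 last at 2.48.

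In the first hour no synthetase mRNA passed the test in either direction in edgeR, among 20 cytosolic and 15 mitochondrial genes, and DESeq2 also called none, where it called 1.42% of all genes lower and 0.313% higher. At an unadjusted p under 0.05 there were 0 cytosolic and 2 mitochondrial genes, against 9.48% of all genes. Over all genes tested, 1.16% were called lower and 0.172% higher at 1 h. The median log2 change was 0.00 for the cytosolic and 0.01 for the mitochondrial set, beside -0.02 for all genes. With the replicate block, PARS2 was lower (log2 change -0.57, adjusted p = 0.0369) and VARS2 higher (0.24, adjusted p = 0.024), where 6.28% of all genes were called lower and 2.52% higher. PARS2, which charges the mitochondrial proline tRNA, then stood at 3.93, 4.15 and 3.65 CPM, below its 3 libraries of 0 h at 6.52, 4.81 and 6.17 CPM. VARS2, for mitochondrial valine, had gone from 39.6, 35.3 and 36.5 CPM to 47.6, 43.9 and 39.9 CPM, each library of 1 h above all of 0 h.

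After 2 h the cytosolic genes FARSB, IARS and LARS were higher, and none was lower, where 3.39% of all genes were called higher and 11.7% lower. IARS, for isoleucine, went from 328, 319 and 334 CPM at 0 h to 397, 379 and 389 CPM at 2 h. The times did not overlap (log2 change 0.25, adjusted p = 0.0126), and leaving out replicate 2 of 0 h ended this call (adjusted p = 0.064). LARS, for leucine, had moved from 284, 273 and 265 CPM to 335, 326 and 311 CPM. Its libraries of 2 h also lay above all of 0 h (0.24, adjusted p = 0.0197). FARSB, the beta subunit of the phenylalanine enzyme, went from 109, 116 and 115 CPM to 121, 138 and 132 CPM, without overlap (0.20, adjusted p = 0.0474). The LARS call ended in 4 of the 12 omissions of a single library (replicate 1 of 2 h, replicate 2 of 0 or 2 h, and replicate 3 of 0 h; adjusted p up to 0.0869). The FARSB call ended in 9 of them (adjusted p up to 0.193), all but those of replicate 1 of 1 or 2 h and replicate 3 of 1 h. Leaving out all libraries of replicate 1, or all of replicate 2, ended the IARS, LARS and FARSB calls (adjusted p = 0.062 to 0.383). With the replicate block, 10 cytosolic genes were higher and 1 lower, against 15.9% and 19.5% of all genes. The added calls were DARS, EPRS, GARS, HARS, KARS, NARS and WARS, with log2 changes of 0.14 to 0.18, and FARSA, lower at -0.14 (adjusted p = 0.0462).

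Among mitochondrial enzymes at 2 h, IARS2 and RARS2 were higher and PARS2 was lower. IARS2 had gone from 244, 267 and 279 CPM to 286, 321 and 316 CPM, each above the highest library of 0 h (log2 change 0.22, adjusted p = 0.0371). RARS2, for arginine, went from 58.0, 61.5 and 63.0 CPM to 68.8, 75.9 and 69.7 CPM, again without overlap (0.23, adjusted p = 0.0383). These calls ended in 5 and 8 single omissions, with adjusted p up to 0.145 and 0.164. The IARS2 call was lost without replicate 1 or 2 of 0 h, replicate 2 or 3 of 2 h or 4 h replicate 2, and the RARS2 call without any library of 0 h or 2 h, 1 h replicate 2 or 4 h replicate 3. PARS2 had dropped to 1.47, 1.72 and 1.06 CPM (log2 change -2.04, adjusted p = 4.41e-05). With the block VARS2 joined the higher genes at 0.20 (adjusted p = 0.0254).

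By 4 h, 8 of 20 cytosolic mRNAs were higher than at 0 h and 1 was lower relative to the rest of the library, and with libraries scaled to ribosomal protein mRNAs none was higher and 7 were lower. The higher genes were VARS, LARS, WARS, KARS, IARS, QARS, FARSB and NARS, and the lower one was RARS. Over all genes tested, 23.3% were called higher and 24.6% lower at this time, or 1.21% and 45.7% with ribosomal protein scaling. The median log2 change of the 20 genes was 0.18 (-0.35 to 0.42), beside 0.05 for all genes. With the block, 15 were higher and 1 lower, against 34.8% and 30.8% of all genes, and the added calls were AARS, DARS, EPRS, GARS, HARS, MARS and YARS with log2 changes of 0.10 to 0.22. In bulk RNA, fewer cells holding an mRNA and less of it per cell cannot be told apart.

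VARS, for valine, stood at 167, 164 and 187 CPM at 0 h and at 236, 219 and 239 CPM at 4 h. All libraries of 4 h lay above those of 0 h, a 1.34-fold higher level (log2 change 0.42, SE 0.06, adjusted p = 0.000137). LARS reached 372, 343 and 328 CPM, above the range it held at 0 h (0.34, SE 0.06, adjusted p = 0.000641). WARS went from 553, 489 and 511 CPM to 705, 592 and 633 CPM. The times did not overlap (0.31, SE 0.08, adjusted p = 0.00814), and the call ended without 0 h replicate 2 (adjusted p = 0.0533). KARS, whose gene also gives the mitochondrial lysine enzyme, moved from 274, 262 and 258 CPM to 338, 328 and 305 CPM (0.29, SE 0.07, adjusted p = 0.00395). IARS stood at 403, 382 and 405 CPM at 4 h, close to its level of 2 h (0.28, SE 0.06, adjusted p = 0.00182). FARSB reached 131, 134 and 136 CPM (0.24, SE 0.06, adjusted p = 0.00719). In KARS, IARS and FARSB each library of 4 h was above every library of 0 h. QARS, for glutamine, and NARS, for asparagine, completed the group with log2 changes of 0.27 and 0.17 (adjusted p = 0.0024 and 0.028). The NARS call ended in 7 single omissions (adjusted p up to 0.163): without 4 h replicate 1, without replicate 2 of 0, 1 or 4 h, and without replicate 3 of 0, 1 or 2 h. When all 4 libraries of replicate 2 were left out, WARS, KARS, QARS, FARSB and NARS were no longer called (adjusted p = 0.057 to 0.219).

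RARS was the one cytosolic enzyme mRNA called lower. This enzyme charges the cytosolic arginine tRNAs and is part of the multisynthetase complex. It held its level through 2 h, at 186, 182 and 146 CPM at 1 h and 174, 188 and 157 CPM at 2 h against 187, 179 and 151 CPM at 0 h. At 4 h it stood at 146, 143 and 117 CPM, all below the lowest library of 0 h. The fall was 1.27-fold (log2 change -0.35, SE 0.12, adjusted p = 0.0281), lower in 3 of 3 replicates, with -0.50 and -0.72 when libraries were scaled by their totals or to ribosomal protein mRNAs. Without the block, the call ended without 0 h replicate 1, without 0 h replicate 2 or without 4 h replicate 3 (adjusted p up to 0.112). It was also lost when every library of replicate 1, or every library of replicate 2, was dropped (adjusted p = 0.127 and 0.147). Dropping those of replicate 3 kept it (adjusted p = 0.00114). With the block and all libraries the adjusted p was 1.25e-07. The other 11 cytosolic genes were not called at 4 h, with log2 changes from -0.06 for FARSA and TARS to 0.22 for HARS.

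**Figure D2:**
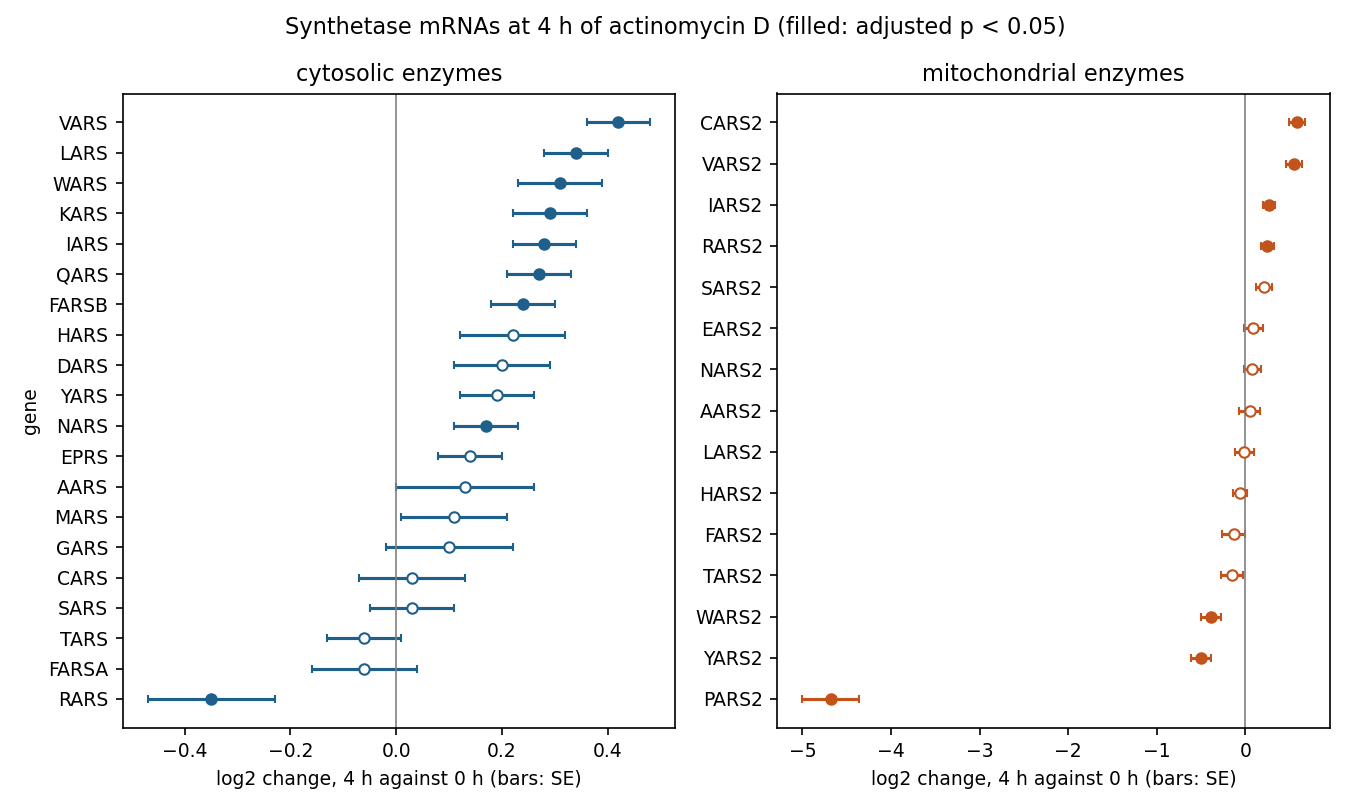
Log2 change from 0 to 4 h for each cytosolic (left) and mitochondrial (right) synthetase mRNA from edgeR on 3 libraries per time; bars are standard errors and filled points have an adjusted p under 0.05. The scales differ between panels because PARS2, at -4.68, lies far below every other gene.

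The 15 mitochondrial enzymes were spread more widely at 4 h. PARS2, YARS2 and WARS2 were lower and CARS2, VARS2, IARS2 and RARS2 higher, so that 3 fell and 4 rose where 24.6% and 23.3% of all genes did. With ribosomal protein scaling 9 of the 15 were lower and none higher, where 45.7% and 1.21% of all genes were called. Without that scaling the median log2 change of the 15 was 0.05 (-4.68 to 0.58), the same as that of all genes. With the block, SARS2, the mitochondrial serine enzyme, was also higher (0.21, adjusted p = 0.0394, against 0.0676 without it).

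PARS2 fell the farthest of the 35. Its raw counts were 69, 51 and 70 at 0 h and 3, 1 and 2 at 4 h, or 0.340, 0.105 and 0.212 CPM at the end. Summed over replicates and scaled by library, 66.8% of the 0 h level was left at 1 h (95% interval 52.9% to 84.3%), 24.2% at 2 h (17.0% to 33.8%) and 3.70% at 4 h (1.34% to 8.19%), where the intervals cover counting error only. The 4 h level was 27.1-fold lower than at 0 h (12.2 to 74.7), and no library of 2 or 4 h overlapped any of 0 h. In edgeR the log2 change was -4.68 (SE 0.32, adjusted p = 1.45e-07), and it was -4.82 and -5.04 under library totals and ribosomal protein scaling. Of the 12775 genes tested, 14 had a lower log2 change at 4 h (0.11%).

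The PARS2 transcript is unlike those of the other members in one structural respect. It was the only member whose coding sequence lies in 1 exon (GENCODE v29, chr1:54756898-54764514, GRCh38, minus strand), and 29 members had 11 or more coding exons. Its 3′ UTR of 836 bases holds 2 copies of ATTTA, the core of AU-rich elements, which proteins of mRNA decay are known to bind. They are shown with their flanks, numbered from the base after the stop codon, because this mRNA was lost most.
PARS2, position 172: cagattatttgtATTTAaagtcattaact
PARS2, position 812: cccgttctattgATTTAataaagtcaaac
Such copies are common. Of 1303 tested genes with a 3′ UTR within 20% of that length, 73.1% held 1 or more and 44.7% held 2 or more. Among 34 members with an annotated 3′ UTR, 14 held at least 1 copy. WARS2 held the most with 5 and was called lower at 4 h, and LARS held 4 and was called higher. Of those with 3 copies IARS2 and NARS were called higher, YARS was called higher only with the block, and LARS2 was not called with or without it. IARS held 2 copies, as PARS2 did, and was called higher.

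YARS2, the mitochondrial tyrosine enzyme, stood at 35.4, 35.8 and 29.2 CPM at 0 h and at 25.7, 24.5 and 20.8 CPM at 4 h. Every library of 4 h was below all of 0 h, a 1.41-fold fall (log2 change -0.50, SE 0.11, adjusted p = 0.00188). WARS2, for mitochondrial tryptophan, went from 13.9, 15.6 and 14.9 CPM to 10.8, 10.9 and 12.2 CPM. It too was lower without overlap, by 1.31-fold (-0.39, SE 0.11, adjusted p = 0.0102). Neither call was lost in an omission of 1 library, but both were when all 4 libraries of replicate 2 were left out (adjusted p = 0.0513 and 0.15).

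Of the mitochondrial genes that rose, CARS2, for cysteine, had the largest log2 change of the 35. It went from 23.1, 21.4 and 21.4 CPM to 35.8, 29.9 and 33.2 CPM, with all libraries of 4 h above those of 0 h, 1.50-fold (log2 change 0.58, SE 0.09, adjusted p = 0.000165). VARS2 moved from 39.6, 35.3 and 36.5 CPM to 56.2, 53.6 and 52.9 CPM, again without overlap, 1.46-fold (0.55, SE 0.09, adjusted p = 0.00042). With ribosomal protein scaling neither passed (0.21 and 0.18, adjusted p = 0.109 and 0.232). IARS2 reached 301, 322 and 331 CPM (0.27, adjusted p = 0.00436) and RARS2 67.7, 77.3 and 72.2 CPM (0.25, adjusted p = 0.00903), both close to their levels of 2 h, and neither was called without the 4 libraries of replicate 2 (adjusted p = 0.0732 and 0.112). The other 8 mitochondrial genes had log2 changes from -0.15 for TARS2 to 0.21 for SARS2, and none was called without the block.

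**Figure D3:**
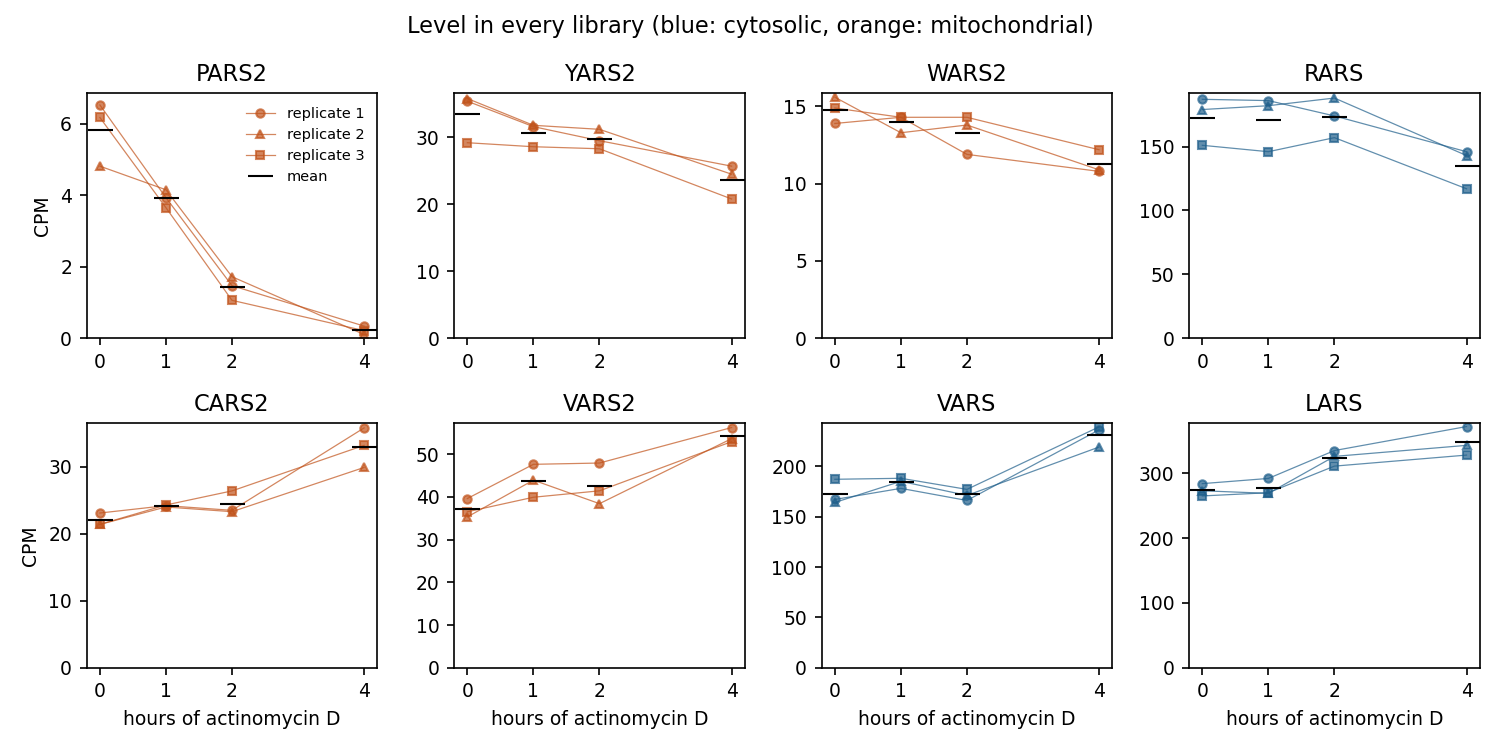
CPM of 8 synthetase mRNAs in each library over 0, 1, 2 and 4 h of actinomycin D, joined by replicate, with black bars for the means; each panel has its own axis from 0. PARS2 declines at each time to 0.105 to 0.340 CPM, RARS falls after 2 h, and CARS2, VARS2, VARS and LARS are highest at 4 h.

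The directions of the small changes depended on what the libraries were scaled to. No added RNA of known amount was part of the table, so each change is relative to the other mRNAs. The median log2 change of all genes at 4 h was 0.05 with TMM scaling (which sets most genes near 0), -0.10 with library totals and -0.32 with ribosomal protein mRNAs held level. The members moved with it, the cytosolic median to 0.03 and -0.19 and the mitochondrial one to -0.10 and -0.32. With library totals VARS, LARS, CARS2 and VARS2 were the members called higher, and RARS, TARS, PARS2, HARS2, YARS2 and WARS2 those called lower, where 10.5% and 31.0% of all genes were called. With ribosomal protein scaling no member was higher and 16 were lower, against 1.21% and 45.7% of all genes. NARS was among these at -0.20 (adjusted p = 0.0353), having been called higher with TMM. PARS2, YARS2, WARS2 and RARS were called lower under all 3 scalings. VARS, CARS2 and VARS2 stayed above 0 under all 3, but with ribosomal protein scaling none of them was called (0.05, 0.21 and 0.18, adjusted p = 0.573, 0.109 and 0.232).

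**Figure D4:**
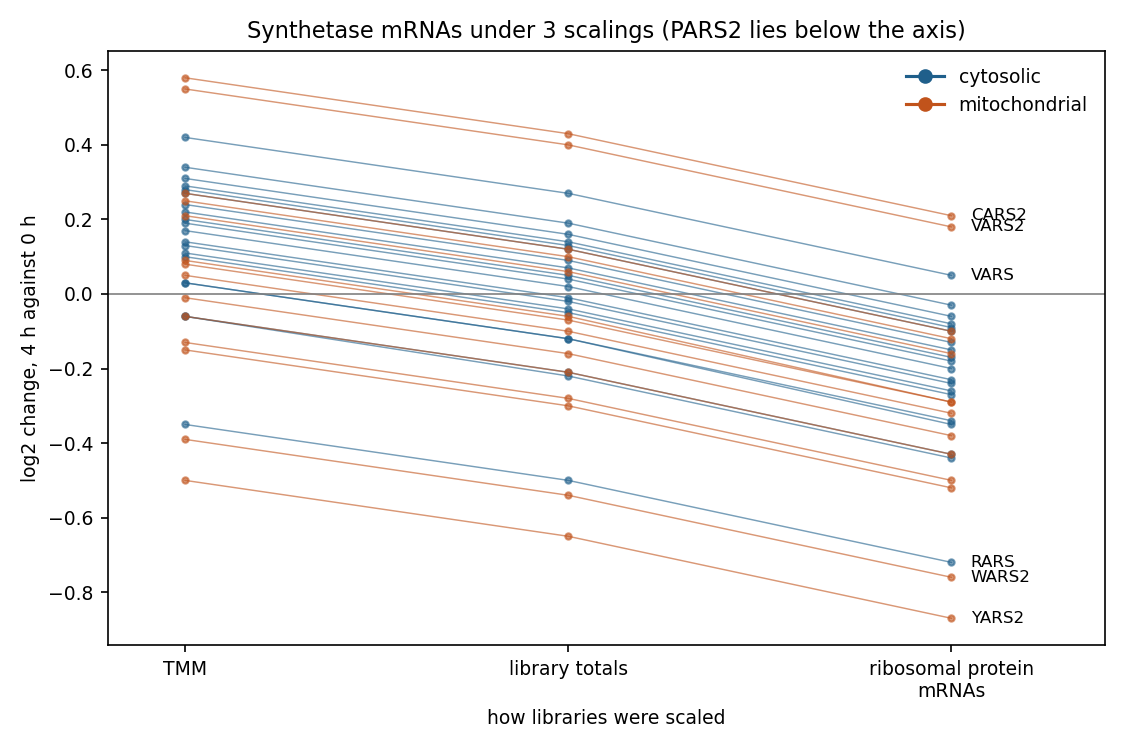
Log2 change at 4 h of 34 synthetase mRNAs (PARS2 lies below the axis) with libraries scaled by TMM, by total counts or to ribosomal protein mRNAs; lines join the values of a gene. All lines drop in parallel, and only CARS2, VARS2 and VARS end above 0 while RARS, WARS2 and YARS2 stay lowest.

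Whether a member moved differently in the late interval was read from the change of rate, in which the log2 difference between 0 and 2 h is subtracted from that between 2 and 4 h. In edgeR no member passed, and 1 cytosolic and 0 mitochondrial genes had an unadjusted p under 0.05 (12.3% of all genes), where 0.227% of all genes were called lower and 0.384% higher. In VARS, level until 2 h at 166, 171 and 177 CPM and higher at 4 h in every library, the difference was 0.44 (adjusted p = 0.119). With the block it was called (adjusted p = 0.000419), as were RARS (-0.36, adjusted p = 0.00281), GARS (-0.23, adjusted p = 0.0132) and IARS (-0.22, adjusted p = 0.0235), against 5.46% lower and 7.39% higher over all genes. Without the block these 3 had adjusted p = 0.523, 0.723 and 0.419. GARS, for glycine, stood at 399, 333 and 355 CPM at 0 h, 456, 373 and 391 CPM at 2 h and 442, 343 and 380 CPM at 4 h, overlapping throughout. PARS2 had a difference of -0.61 that did not pass (adjusted p = 0.774).

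Setting each cytosolic enzyme against its mitochondrial partner within a library removes the scaling. The log2 ratio of counts (each plus 1) was formed for 16 pairs that serve the same amino acid, EPRS serving both the glutamate and the proline partner and FARSA and FARSB the same phenylalanine partner. Between 0 and 4 h the ratio changed by less than 0.2 in 8 pairs, and the median change was 0.08. The largest change was that of EPRS over PARS2, from 6.64, 6.96 and 6.71 to 10.66, 11.75 and 11.06 (4.38, or 4.66 with 0.5 added to the counts). WARS over WARS2 went from 5.31, 4.96 and 5.09 to 6.02, 5.75 and 5.69, and YARS over YARS2 from 2.26, 2.09 and 2.51 to 2.97, 2.79 and 3.14. Both ratios were higher in all libraries of 4 h, by 0.70 and 0.68, as were those of FARSB over FARS2 (0.37), LARS over LARS2 (0.35) and HARS over HARS2 (0.28). For arginine and cysteine the order was the opposite. RARS over RARS2 went from 1.69, 1.54 and 1.26 to 1.11, 0.89 and 0.70 (-0.60), and CARS over CARS2 from 1.34, 1.21 and 1.43 to 0.79, 0.71 and 0.82 (-0.55). The isoleucine pair, IARS and IARS2, were both called higher, and their ratio changed by 0.00 (-0.01 to 0.03 over replicates). That of the valine pair, VARS and VARS2, changed by -0.12 (-0.19 to 0.00). The change in SARS over SARS2 was -0.18, with one sign in all replicates (-0.25 to -0.13) but overlapping libraries. With 3 libraries against 3, the two-sided exact permutation test cannot give a p below 0.1, which each of the 8 pairs without overlap reached (0.2 after adjustment over 16 pairs). How often pairs of other genes had ratios without overlap was not examined, so this count is not read as particular to these partners. A test paired by replicate could not go below 0.25 with 3 pairs, so none was run.

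**Figure D5:**
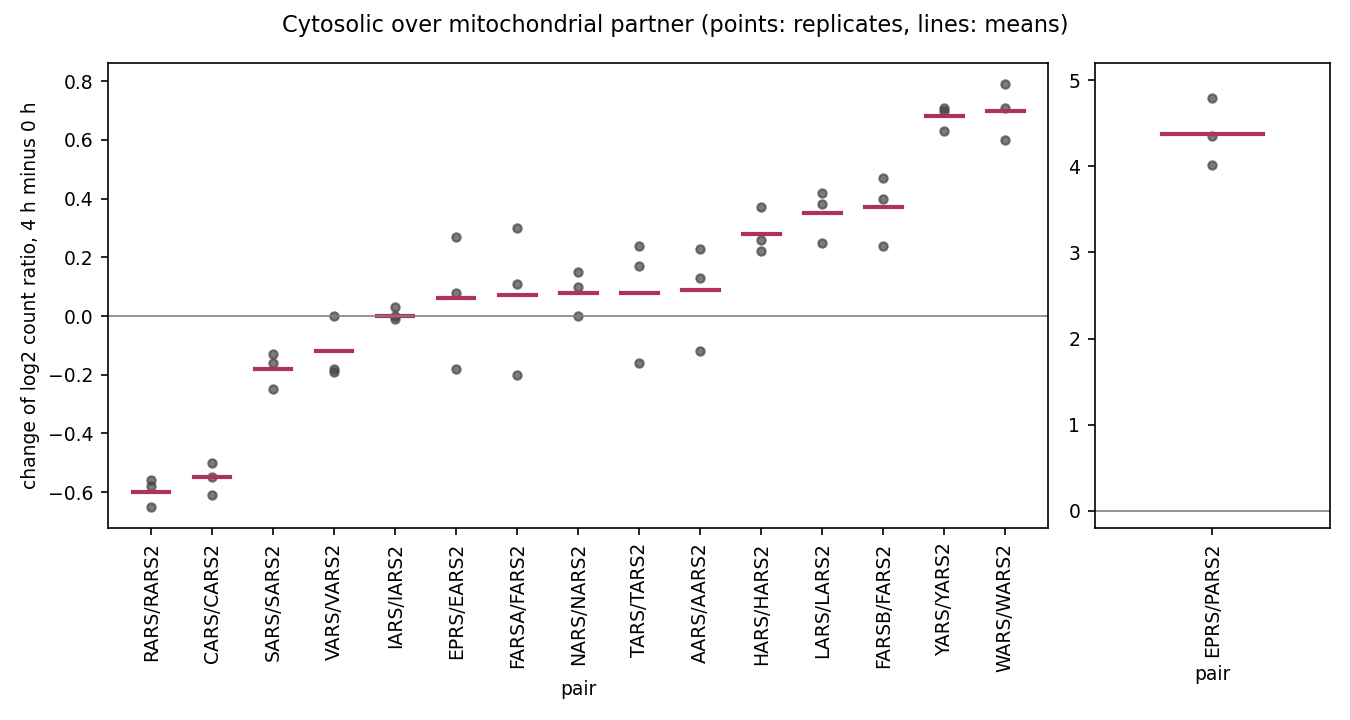
Change of the within-library log2 count ratio of each cytosolic enzyme over its mitochondrial partner from 0 to 4 h; points are the 3 replicates, bars their means, and EPRS over PARS2 has its own axis. The arginine and cysteine pairs lie below 0 and the tryptophan and tyrosine pairs above it in every replicate.

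The 2 catalytic classes, which differ in the fold of the active site, and the multisynthetase complex divided the same genes in other ways. Of the class I enzymes 9 of 17 were higher and 3 lower at 4 h (median log2 change 0.25), and of class II 3 of 17 were higher and 1 lower (median 0.08), beside 0.05 for all genes, of which 23.3% were called higher and 24.6% lower. EPRS was left out because it carries a domain of each. With the block, 11 class I genes were higher and 3 lower, and 8 class II genes higher and 1 lower, where 34.8% and 30.8% of all genes were called. With ribosomal protein scaling none of either class was higher, and 5 of class I and 10 of class II were lower, where 1.21% and 45.7% of all genes were called. The enzymes of the multisynthetase complex, EPRS, IARS, LARS, MARS, QARS, RARS, KARS and DARS, had 4 of 8 higher and 1 lower (median 0.24), and the 12 cytosolic enzymes outside it 4 higher and none lower (median 0.15). With the block these counts were 7 and 1 inside and 8 and 0 outside. The difference between such groups was not tested. The 7 cytosolic genes with the ATF4-type motif had a median of 0.11 at 4 h (-0.06 to 0.28, IARS and NARS higher) and the 9 searched without a match 0.22 (-0.35 to 0.31, FARSB, KARS, QARS and WARS higher and RARS lower). Their median levels at 0 h were 70.3 and 80.2 CPM per kb.

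The genes that work with the synthetases are given beside the shares over all genes at 4 h, 24.6% lower and 23.3% higher, or 30.8% and 34.8% with the block. With ribosomal protein scaling these shares were 45.7% lower and 1.21% higher. Of the 3 scaffold proteins of the complex, AIMP2 was lower at 4 h, from 48.6, 51.1 and 45.1 CPM to 45.0, 37.8 and 33.3 CPM (log2 change -0.32, adjusted p = 0.0287), a call that ended without replicate 1 or 2 of 0 h or replicate 2 or 3 of 4 h (adjusted p up to 0.117). AIMP1 was not called (0.16, adjusted p = 0.0582) except with the block, where it was higher (adjusted p = 0.0149), and EEF1E1 was not called (-0.12). With ribosomal protein scaling all 3 were called lower. Of 4 genes that finish mitochondrial glutaminyl-tRNA or formylate methionyl-tRNA, QRSL1, a subunit of the glutaminyl-tRNA amidotransferase, was lower (-0.31, adjusted p = 0.00908). With the block GATB, another subunit, was also called, higher at 0.28 (adjusted p = 0.0345, against 0.0983 without it), and with ribosomal protein scaling 3 of the 4 were lower. Of 10 genes of tRNA maturation and export, 3 were lower and 1 higher, and with the block 3 and 3, XPOT and TSEN34 being added. CLP1, an RNA kinase linked to tRNA splicing, went from 19.3, 20.5 and 17.0 CPM to 5.67, 4.29 and 4.56 CPM, 3.91-fold lower (-1.97, adjusted p = 1.08e-07). ELAC1, which trims tRNA 3′ ends, had a log2 change of -1.52 (adjusted p = 0.00193), and TRNT1, which adds their CCA end, one of -0.48 (adjusted p = 0.00236). ELAC2 was higher (0.25), though not with ribosomal protein scaling, where none of the 10 was higher and 8 were lower.

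Elongation factors carry the charged tRNA to the ribosome or move it there. All 5 cytosolic ones were called higher at 4 h in edgeR and 4 of them in DESeq2, with a median log2 change of 0.35, led by EEF1D, a subunit of the exchange factor of EEF1A1, from 276, 262 and 286 CPM to 406, 413 and 399 CPM (0.56, adjusted p = 2.58e-05). EEF1A1 was called narrowly (0.21, adjusted p = 0.046), and its call held in 3 of the 12 omissions of a single library, those of replicate 1 of 0 h and replicate 3 of 1 or 4 h (adjusted p up to 0.181 in the others). With ribosomal protein scaling, which called 1.21% of all genes higher and 45.7% lower, 1 of the 5 was higher and the median was -0.02. Of 9 mitochondrial translation factors, TUFM, which delivers charged tRNA to the mitochondrial ribosome (0.36, adjusted p = 0.000299), and GFM2, a recycling factor (0.28), were higher and none was lower. The GFM2 call ended without 4 h replicate 1 or 0 h replicate 2 (adjusted p up to 0.0551). The elongation factors TSFM (0.08) and GFM1 (0.11) were not called. With the block MTRF1L joined the higher genes (adjusted p = 0.0447), and with ribosomal protein scaling none was higher and 4 were lower.

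Of 26 amino acid response genes, 8 were lower and 5 higher at 4 h, with a median log2 change of 0.07, beside 24.6% lower and 23.3% higher over all genes. With the block 10 were lower and 12 higher, beside 30.8% and 34.8%. DDIT4, an inhibitor of mTORC1, went from 34.6, 31.6 and 47.0 CPM to 1.36, 0.941 and 0.848 CPM (log2 change -5.16, adjusted p = 3.12e-08). SLC38A2, an amino acid carrier, fell by 1.74 on the log2 scale (adjusted p = 5.66e-09), and DDIT3, a stress transcription factor, by 2.97 (adjusted p = 4.82e-07). ATF4 itself stood at 188, 173 and 227 CPM at 0 h and 217, 172 and 255 CPM at 4 h, values that overlapped (0.13, adjusted p = 0.491). With the block it was called higher (adjusted p = 0.0181). Of its targets that make amino acids, PYCR1, of proline synthesis, was higher (0.51, adjusted p = 2.68e-05). PHGDH, SHMT2 and ALDH18A1 were also called higher (0.40, 0.24 and 0.24, adjusted p = 0.012, 0.0277 and 0.0242). Their calls ended in 2, 3 and 4 of the omissions of a single library (adjusted p up to 0.162). With all libraries, ASNS and PSAT1 were called higher only with the block (0.17 and 0.27, adjusted p = 0.00283 and 6.71e-06, against 0.639 and 0.0624 without it). PSPH and CTH were not called in either fit. With ribosomal protein scaling 11 of the 26 were lower and none was higher, beside 45.7% and 1.21% of all genes.

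Some members overlap other genes, and whether the counting used strand was not given in the sources used here. In GENCODE v29, 14 members share exon bases with a gene on the opposite strand, 3 of them over 10% of the transcript: HARS with HARS2 (16.5%), WARS with WDR25 and AL157871.4 (14.1%) and SARS2 with MRPS12 (13.1%). MARS shares 62 bases with DDIT3, which fell. SARS2 also shares 77.4% of its bases with a gene model on its own strand, so its values are uncertain. Where strand was not used, reads from the shared bases of HARS and HARS2 cannot be told apart. PARS2, YARS2, RARS, CARS2, VARS2, VARS, IARS2 and RARS2 share no exon base with another gene in this annotation.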

How the data were processed

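The authors deposited one table of raw read counts per gene symbol for the 12 libraries. Per the submitters' processing notes, FastQC and STAR were used with the build hg19. How reads were counted, on which annotation and with which strand option is not given in the sources used here. Extraction was by Nucleospin kit and the library kit was Illumina TruSeq stranded mRNA, per the labels' protocols. Members and gene lists were chosen with earlier results of these data known. Where nothing shows separate cultures, p-values measure the spread between these libraries.

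The counts entered edgeR 4.0.16 under R 4.3.3: filterByExpr on time groups, TMM scaling, dispersions from all 12 libraries, and the quasi-likelihood test of each time against 0 h and of the change of rate. Benjamini-Hochberg adjustment ran over all 12775 genes, at a threshold of 0.05. No 2 replicates were alike within sampling noise (chi-square per degree of freedom 4.13 to 15.2). The script was tested on simulated data. Alternatives were DESeq2 1.42.0, other scalings (77 ribosomal protein genes), no filter, fewer libraries and the replicate block. Replicate numbers from the labels paired the libraries: deviations from group means correlated at 0.369 to 0.494, 0.263 to 0.336 and 0.575 to 0.649 within replicates 1, 2 and 3, and at -0.501 to 0.16 between numbers.

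Named genes were, in each compartment, up to 5 falls and 5 rises among members called at 4 h, every member called at 1 or 2 h, up to 3 in either direction for the change of rate, and up to 3 called genes of each related list. Members added by the block and overlaps were named after their values were seen. Further genes of the related lists, ELAC2, EEF1A1, ASNS and PYCR1 among them, were named outside this rule. Lengths and exons came from 1 GENCODE v29 transcript per gene, that with the longest coding sequence, matched by symbol for 91.3% of tested genes.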

Additional observations from a re-analysis of the deposited data

How the results depend on the processing

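The replicate block, which pairs libraries by number, gave 1 mitochondrial gene lower and 1 higher at 1 h, 1 cytosolic gene lower and 10 higher at 2 h, 15 cytosolic genes higher at 4 h, and for the change of rate 3 cytosolic genes lower and 1 higher. No call made without the block was lost with it. Library totals gave at 2 h 1 cytosolic and 0 mitochondrial genes higher with median log2 changes of 0.05 and -0.04, and at 4 h 2 cytosolic genes lower and 2 higher, 2 mitochondrial genes higher and medians of 0.03 and -0.10. Ribosomal protein scaling gave 0 genes higher of either set at 2 and 4 h, with medians of -0.03 and -0.12 and then -0.19 and -0.32. It gave 7 cytosolic and 9 mitochondrial genes lower at 4 h, where 45.7% of all genes were called lower. At 4 h it turned FARSB (-0.13), IARS (-0.09), KARS (-0.08), LARS (-0.03), NARS (-0.20), QARS (-0.10), WARS (-0.06), IARS2 (-0.10) and RARS2 (-0.12). Without the filter, or with only 0 h and 2 h libraries, 0 mitochondrial genes were higher at 2 h. The cause was not tested beyond what scaling and fewer genes or libraries set by construction.

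Leaving out 1 library, or all libraries of 1 replicate number, gave these ranges of counts and medians. At 1 h the cytosolic median was -0.07 to 0.04 and the mitochondrial one -0.02 to 0.05. At 2 h they were 0.06 to 0.13 and -0.05 to 0.04, with 0 to 3 cytosolic and 0 to 2 mitochondrial genes higher. At 4 h, 0 to 1 cytosolic genes were lower and 3 to 9 higher (median 0.14 to 0.20), and 1 to 3 mitochondrial genes were lower and 2 to 4 higher (median -0.02 to 0.05), the counts of 3, 1 and 2 coming without replicate 2. The PARS2 calls at 2 and 4 h held in every alternative run. Depth limits PARS2 at 4 h, where 6 counts in all were left, and intervals cover counting error only.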

Other observations

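The number of coding exons, in which PARS2 stood apart from the other members, went with the log2 change at 4 h over all tested genes that could be matched to a GENCODE v29 transcript (11667 genes). Of 572 genes with 1 coding exon, 61.5% were called lower and 3.50% higher, with a median log2 change of -0.78. Of 2885 genes with 2 to 5 coding exons, 33.4% were lower and 20.3% higher (median -0.05), of 3346 with 6 to 10, 20.8% and 25.2% (median 0.10), and of 4864 with 11 or more, 19.0% and 27.5% (median 0.11). YARS2, with 5 coding exons, was the one member in the second class, and the third held WARS2 and FARS2 with 6 each, EARS2 with 8 and WARS with 10, of which WARS2 was called lower and WARS higher. PARS2 was nevertheless far down within its own class, where 2 of the 572 genes (0.350%), PARS2 itself included, had a log2 change at or below its -4.68. These are descriptions across genes, which are not independent replicates.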
